A study of Homo sapiens with 8 samples.

Results

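The 10 genes described here encode alpha, beta and gamma tubulin. They were the entries of the deposited count table named TUBA1A, TUBA1B, TUBA1C, TUBB, TUBB2A, TUBB2B, TUBB3, TUBB4B, TUBB6 and TUBG1, 10 of 58302 genes, and all 10 passed the filter on low counts that 14216 genes passed. RNA-seq libraries came from untreated, undifferentiated human pluripotent stem cells grown without feeder cells in mTeSR1. WTC11, a line of induced pluripotent stem cells, gave 2 control libraries and 3 with the genotype KIF3B-/-, and WA09, a line of embryonic stem cells, gave 2 control libraries and 1 with the genotype KIF3A-/-. KIF3A and KIF3B are the motor subunits of kinesin-2, which carries cargo along the microtubules of the primary cilium. Per the labels, WTC11 control replicate 1 and KIF3B knockout replicates 1 and 2 belong to guide 1 against KIF3B. WTC11 control replicate 2 and KIF3B knockout replicate 3 belong to guide 2. The WA09 libraries belong to guide 1 against KIF3A, and each control is isogenic to its knockout. Each knocked-out gene was paired with 1 cell line, so gene and line cannot be told apart, and the labels do not say which libraries came from separate clones or cultures. P-values therefore rest on differences among libraries, and those that share a guide and a genotype may be technical repeats.

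Alpha and beta tubulin form the dimer from which microtubules are built, and gamma tubulin, in a ring-shaped complex, nucleates them. Vertebrates carry several alpha and beta isotypes, whose proteins are nearly alike except in the acidic tail at the carboxyl end, the site of most tubulin modifications. Cells also limit tubulin mRNA themselves: when free dimers are in excess, the factor TTC5 recognises nascent tubulin on the ribosome by its first residues, and the CCR4-NOT deadenylase complex degrades the mRNA being translated.

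The likeness of these genes sets how far their counts can be told apart, so the coding ends of 3 beta genes are shown first, a near-identical pair and a more distant relative. Sequences were read from the GENCODE release 29 reference transcripts on GRCh38 and are the last 60 coding bases before the stop codon. Capitals mark bases that differ from the partner gene: TUBB2A and TUBB2B for each other, and TUBB2B for TUBB6.
TUBB2A: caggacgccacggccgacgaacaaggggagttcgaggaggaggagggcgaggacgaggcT
TUBB2B: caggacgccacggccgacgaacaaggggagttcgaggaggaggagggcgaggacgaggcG
TUBB6: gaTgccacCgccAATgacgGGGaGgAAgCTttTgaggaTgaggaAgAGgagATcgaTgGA
Of these 60 bases, TUBB2B differed from TUBB2A at 1 and TUBB6 from TUBB2B at 23. Over the whole coding sequence, TUBA1A and TUBA1B were 97.2% identical, TUBA1B and TUBA1C 96.8%, and TUBB2A and TUBB2B 98.2%, whereas TUBA1A and TUBB were 54.6% identical and TUBA1A and TUBG1 50.9%.

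In the alpha and beta members, the first 12 coding bases encode the stretch that autoregulation reads, and TUBG1 is given for comparison. These first bases are shown once for each distinct start, all in lower case, since whole starts rather than single bases are compared.
TUBA1A, TUBA1B and TUBA1C: atgcgtgagtgc
TUBB and TUBB4B: atgagggaaatc
TUBB3 and TUBB6: atgagggagatc
TUBB2A: atgcgcgagatc
TUBB2B: atgcgtgagatc
TUBG1: atgccgagggaa
The 3 alpha members shared a single start, the 6 beta members had 4 different ones, and TUBG1 had its own. The 4 beta starts differ only at synonymous codons and encode the same residues.

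On GRCh38, the 3 alpha genes lie near each other on chromosome 12: TUBA1B at chr12:49127782-49131397, TUBA1A at chr12:49184796-49189324 and TUBA1C at chr12:49188736-49274603. TUBA1A and TUBA1C overlap by 589 bases on opposite strands, and the whole TUBA1B locus of 3616 bases is covered by the antisense gene AC011603.2, which had 6 counts in all 8 libraries together. TUBB2A at chr6:3153669-3157526 and TUBB2B at chr6:3224261-3231730 are neighbours on the same strand, and TUBB lies at chr6:30720201-30725426. TUBB3 spans chr16:89921392-89938761, TUBB4B chr9:137241213-137243707, TUBB6 chr18:12307669-12344320 and TUBG1 chr17:42609676-42615234. TUBB3 lies on the same strand as the longer protein-coding gene AC092143.1, with which its reference transcript shared 1537 of 1720 stretches of 50 bases and which was at 0 in all 8 libraries. How the counting treated strand and such shared reads is not stated in the labels or the table.

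For each member, every 50-base stretch of the reference transcript was searched for in the transcripts of all other genes, on both strands. The share of positions found in no other gene was 99.0% for TUBB6, 85.4% for TUBB4B, 69.7% for TUBG1, 69.2% for TUBB, 59.9% for TUBA1C, 48.2% for TUBA1A, 47.8% for TUBB2B, 34.5% for TUBB2A, 12.9% for TUBA1B and 10.6% for TUBB3. Of the 1578 positions of TUBA1B, 204 were its own, while 1084 also stood in the antisense gene AC011603.2, 609 in TUBA1A and 587 in TUBA1C. Of the 1546 positions of TUBB2A, 933 also stood in TUBB2B. Pseudogenes took few counts: 39 tubulin pseudogenes held 380 counts, or 0.862% of what the 10 members held.

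Library totals ran from 2161890 to 2875163 counts, a ratio of 1.33, and 3 counts, which a true level may reach where 0 were seen, equal 1.04 to 1.39 CPM (counts scaled to a common total). Together the members held 0.208% to 0.248% of a library's counts. KIF3B itself had 71 and 59 counts in the WTC11 controls and 129, 86 and 107 in the KIF3B knockout libraries (log2 fold change 0.49 ± 0.34 SE, edgeR adjusted p = 0.507), and KIF3A had 174 and 167 in the WA09 controls against 75 in the KIF3A knockout library (-0.97 ± 0.35 SE, edgeR adjusted p = 1). KIF3B counts were not lower in the libraries labelled KIF3B-/-, so the level of the targeted gene did not check these labels, and a KIF3B knockout library here always means one labelled so. Of 12 pluripotent stem cell markers, 12 had a mean of at least 5 CPM, their sum running from 4893 to 6510 CPM, while SOX1, SIX3, HAND1, SOX17, LUM, DCN, CDX2 and TFAP2A, which mark other cell types, were at 0 in all 8 libraries. Other genes on the lists for such cells had counts, with a mean of 393 CPM for THY1, 164 for COL1A2, 139 for KDR and 86.0 for NES. NEFL had a mean of 60.3 CPM, COL1A1 44.2, KRT7 25.2 and CER1 17.9. Counts of these genes do not by themselves show other cell types, and which cells held them was not tested. For single genes and lists, CPM were taken over the genes tested after TMM scaling, which evens out library composition.

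All 3 alpha genes were detected in every library. TUBA1A, the alpha isotype best known from migrating neurons, had 684 and 702 counts in the WTC11 controls, 725, 717 and 843 in the KIF3B knockout libraries, 730 and 740 in the WA09 controls and 672 in the KIF3A knockout library. TUBA1B, a ubiquitous alpha isotype, had 247 and 227 counts in the WTC11 controls, 227, 220 and 242 in the KIF3B knockout libraries, 227 and 243 in the WA09 controls and 241 in the KIF3A knockout library. TUBA1C, another broadly used isotype, had 171 and 181, then 183, 195 and 191, then 171 and 162, and 158 counts in the same order. TUBA1A was the highest of the 3 in every library, and for TUBA1B the groups overlapped in counts, the KIF3A knockout library lying between its 2 controls.

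Among beta genes, TUBB, the main beta isotype of most dividing cells, had 1568 and 1662 counts in the WTC11 controls, 1779, 1651 and 1811 in the KIF3B knockout libraries, 1581 and 1615 in the WA09 controls and 1523 in the KIF3A knockout library. TUBB4B, broadly expressed and a component of cilia, had 802 and 835, then 885, 736 and 970, then 799 and 841, and 719 counts in that order. TUBB6, a widely expressed isotype known to destabilise microtubules when raised, had 608 and 726, then 720, 820 and 733, then 779 and 808, and 625 counts. The KIF3A knockout library had the fewest counts of TUBB and TUBB4B of all 8, and KIF3B knockout replicate 2 had the most of TUBB6 but the fewest of TUBB4B within its group.

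TUBB2A and TUBB2B, near-identical isotypes abundant in neurons, varied alike. TUBB2A had 331 and 405 counts in the WTC11 controls, 392, 449 and 367 in the KIF3B knockout libraries, 344 and 337 in the WA09 controls and 338 in the KIF3A knockout library. TUBB2B had 332 and 418, then 395, 448 and 390, then 388 and 390, and 385 counts. In both genes KIF3B knockout replicate 2 was highest, WTC11 control replicate 2 came next and WTC11 control replicate 1 was lowest, so the spread within WTC11 spanned all other libraries. KIF3B knockout replicate 2 also stood highest in some markers of other cell types, which were singled out after their values were seen. COL1A2, a collagen gene of fibroblasts, had 312 CPM there and 118 to 165 in the other 7 libraries, and COL1A1 had 124 against 21.1 to 47.4. CER1, a marker of definitive endoderm, had 64.3 CPM against 2.16 to 16.5, and NEFL, a neurofilament gene of neurons, 120.3 against 34.0 to 85.9. Other markers of the same lists were not highest in that library. THY1 had 344 CPM there against up to 441 elsewhere, and POSTN and PDGFRB 7.38 each against up to 13.3 and 19.4. Among neuronal markers, STMN2, MAP2, INA and NEFM were not highest there either. The list of 9 fibroblast and mesenchymal markers summed to 517 to 798 CPM in the KIF3B knockout libraries and 571 to 610.0 in the WTC11 controls. It summed to 616 to 648 CPM in the WA09 controls and 627 in the KIF3A knockout library. Within these sums THY1 alone had 297 to 441 CPM. Of the 9 markers 5 passed the filter, and LUM and DCN were at 0. In the KIF3B comparison 4 of these 5 were higher, with a median log2 fold change of 0.60 and 3 at an unadjusted p under 0.05, against 16.6% of all genes (0 passed edgeR's test). The part of such cells in the tubulin counts of this library was not tested. The ratio of TUBB2A to TUBB2B counts lay between 0.941 and 1.00 in the 5 WTC11 libraries and between 0.864 and 0.887 in the 3 WA09 libraries, without overlap. This ratio was singled out after its values were seen and is given without a test. With 933 shared positions, how the counting divided reads between both genes was not tested.

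TUBB3, the isotype used as a marker of neurons, was the lowest member, with 13 and 18 counts in the WTC11 controls, 14, 7 and 10 in the KIF3B knockout libraries, 11 and 5 in the WA09 controls and 10 in the KIF3A knockout library. These correspond to 1.85 to 8.16 CPM, against 1.04 to 1.39 CPM for 3 counts. Of the 1720 positions of TUBB3, 1537 also stood in AC092143.1, and the part of this overlap in the low counts was not tested. Of 12 neuronal markers, 11 had a count somewhere and ELAVL4 was at 0. Their sum ran from 145 to 206 CPM in the WTC11 controls, from 142 to 242 in the KIF3B knockout libraries, from 184 to 185 in the WA09 controls and was 170.2 in the KIF3A knockout library, and its part in the TUBB3 counts was not tested. In such pooled cells, fewer cells of a type and less RNA per cell cannot be told apart.

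TUBG1, the gamma tubulin of the nucleating complex, had 382 and 363 counts in the WTC11 controls, 430, 368 and 432 in the KIF3B knockout libraries, 400 and 424 in the WA09 controls and 403 in the KIF3A knockout library. Its highest count was 1.19 times its lowest. In CPM the KIF3A knockout library was the highest of all 8, at 178, and KIF3B knockout replicate 3 the lowest, at 155.

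**Figure D1:**
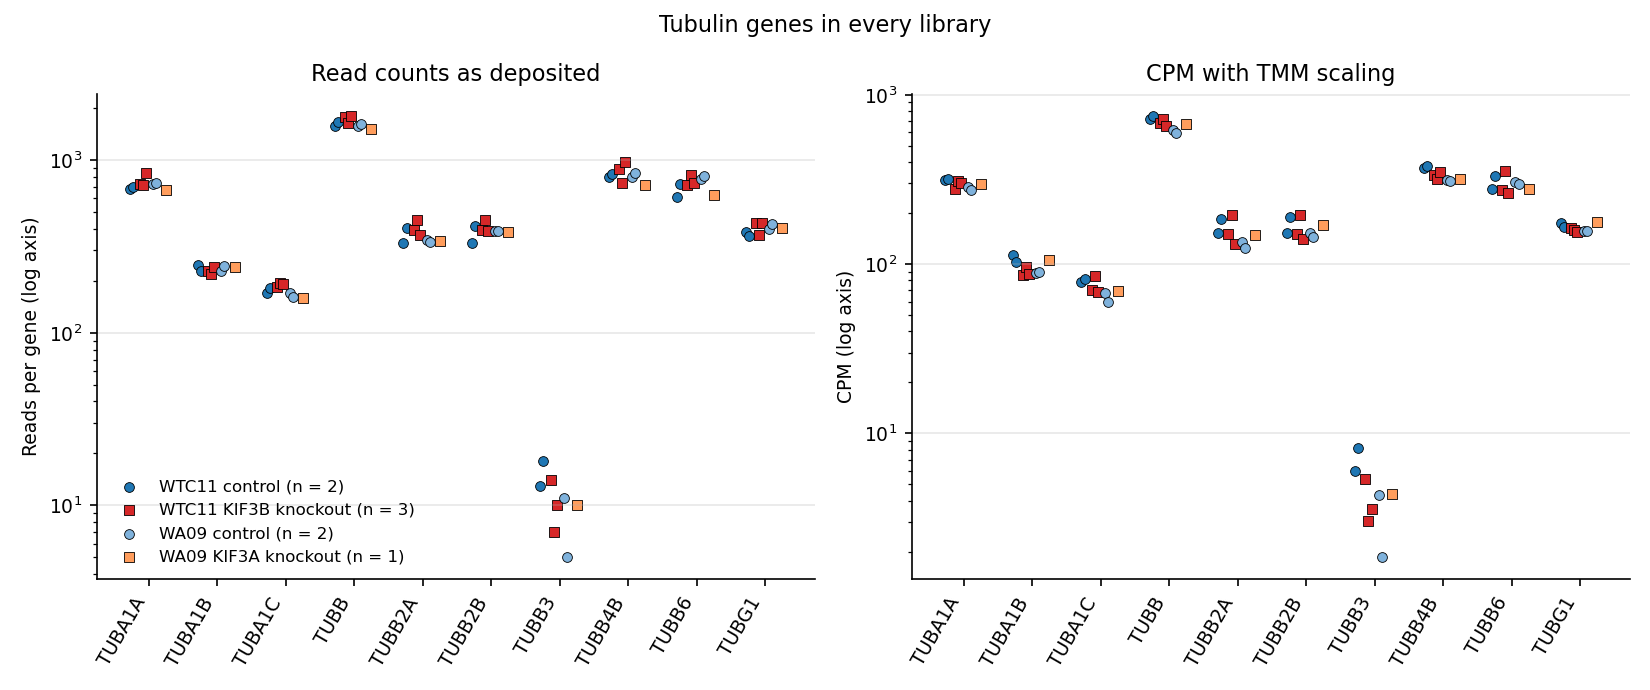
Reads per gene as deposited (left) and CPM with TMM scaling (right), both on log axes, of the 10 tubulin genes, 1 point per library, coloured by group. Counts of TUBA1B stay between 220 and 247 over all 8 libraries, TUBB is highest throughout and TUBB3 lies at 5 to 18 counts.

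Per kilobase of reference transcript, the order of the mean counts was TUBB (618), TUBB4B (503), TUBA1A (379), TUBB6 (352), TUBG1 (248), TUBB2A (232), TUBB2B (195), TUBA1B (144), TUBA1C (58.8) and TUBB3 (6.22). Over libraries, TUBA1A ran from 351 to 440.2 and TUBB6 from 295 to 397 counts per kilobase, and TUBA1A was the higher in 6 of 8 libraries. TUBG1 and TUBB2A overlapped likewise, TUBG1 being higher in 6 of 8. In the other 7 pairs of neighbours the order was the same in 8 of 8 libraries. The length used matters for genes that share sequence. When each count was divided by the positions that are the gene's own, an alternative chosen after seeing the data, TUBA1B came first, at 1.15 counts per position, ahead of TUBB (0.908), TUBA1A (0.808), TUBB2A (0.694), TUBB4B (0.607), TUBB2B (0.417), TUBG1 (0.368), TUBB6 (0.365), TUBA1C (0.0998) and TUBB3 (0.0601). TUBA1B was thus eighth by length and first by own positions, on a search of both strands in which 1084 of its positions matched AC011603.2, the antisense gene with 6 counts in all. Which of both scales suits the counting cannot be settled from the table.

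**Figure D2:**
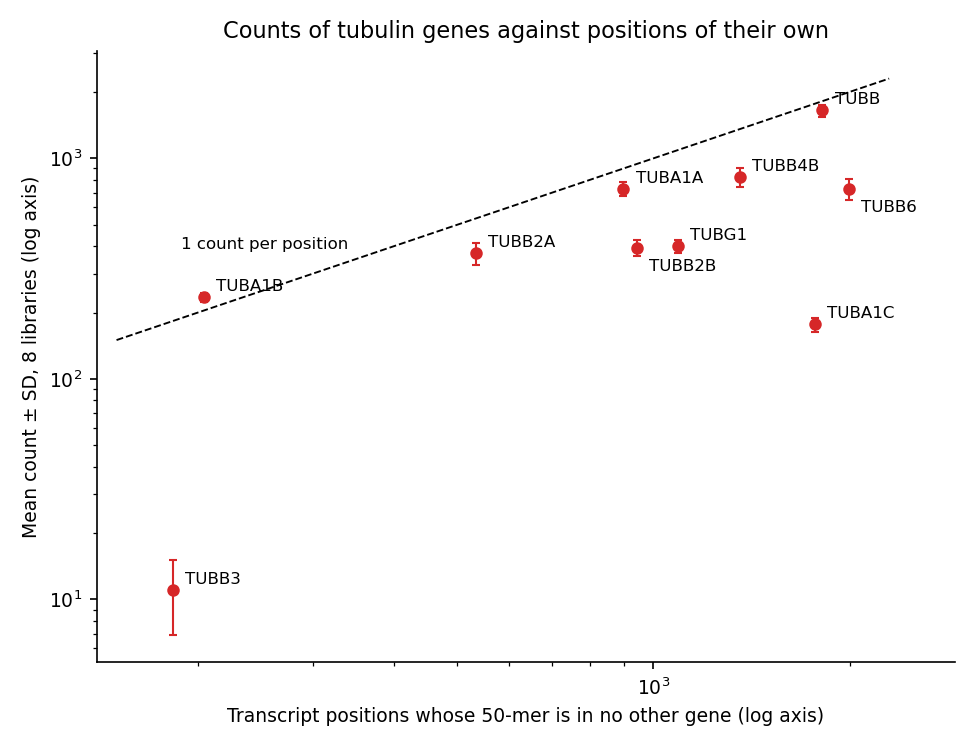
Mean count over 8 libraries with its SD against the number of transcript positions whose 50-base stretch occurs in no other gene, both on log axes, for the 10 tubulin genes, with a dashed line at 1 count per position. TUBA1B, at 1.15, lies above the line, and TUBA1C, with 1768 positions of its own, lies far below it at 0.0998.

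Several tubulin counts varied less between libraries than the library totals did. The variance of the raw counts over 8 libraries, divided by their mean, is near 1 where totals are equal and only the sampling of reads adds spread. With unequal totals, as here, sampling alone gives more than 1, and the more so the higher the mean. A value above 1 is therefore not by itself a spread beyond sampling. It was 0.430 for TUBA1B and 0.994 for TUBA1C, then 1.51 for TUBB3, 1.87 for TUBG1, 2.72 for TUBB2B, 3.78 for TUBA1A, 4.73 for TUBB2A, 6.20 for TUBB, 7.86 for TUBB4B and 8.36 for TUBB6. Among the 6520 tested genes with a mean of at least 100 counts the median was 12.2, and 0.583% lay below 1. Of 1915 genes with a mean within a factor of 1.3 of that of TUBA1B, 0.104% had a ratio as low. Taken likewise, the share was 0.564% for TUBA1C, 2.43% for TUBG1, 5.26% for TUBB2B, 11.4% for TUBB3 and 11.6% for TUBA1A. It was 14.4% for TUBB, 14.9% for TUBB2A, 27.8% for TUBB4B and 30.8% for TUBB6, so the evenness differed among members. The highest count exceeded the lowest by less than the ratio of library totals in 5 of the 9 members with a mean of at least 100 counts, against 7.73% of the 6520 genes. ACTB and GAPDH, abundant genes of the cytoskeleton and of glycolysis, also stayed within 2368 to 2586 and 986 to 1068 counts. How duplicate reads were handled is not stated in the labels or the table, and its part in these even counts was not tested. Each comparison that follows is given with and without scaling to the library total.

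**Figure D3:**
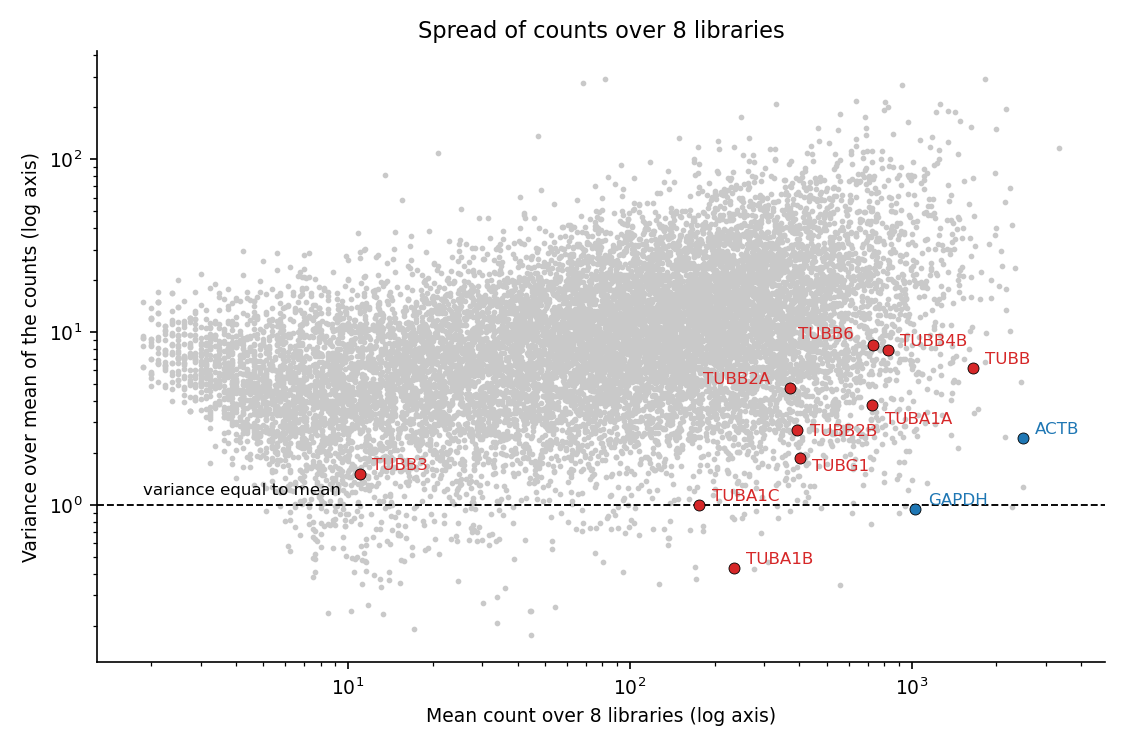
Variance over mean of the deposited counts against their mean over 8 libraries, both on log axes, for the genes tested (grey), the 10 tubulin genes (red) and ACTB and GAPDH (blue), with a dashed line where the variance equals the mean. TUBA1B, at 0.430, and TUBA1C, at 0.994, lie at or below the line, while genes with a mean of at least 100 counts have a median of 12.2.

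The division of tubulin RNA among isotypes was computed within each library, without scaling to the library total. Of the summed counts per kilobase of the 3 alpha members, TUBA1A took 65.1% ± 1.36 (SD, n = 8), TUBA1B 24.8% ± 1.47 and TUBA1C 10.1% ± 0.690. For TUBA1A the share was 63.1% and 64.7% in the WTC11 controls, 65.4%, 65.2% and 67.5% in the KIF3B knockout libraries, 66.0% and 65.5% in the WA09 controls and 63.6% in the KIF3A knockout library. It was thus higher in each KIF3B knockout library than in both controls and lower in the KIF3A knockout library than in both of its controls, with all 8 values inside 63.1% to 67.5%. The TUBA1A share also went with the library totals. Its 3 lowest values were in the libraries with the smallest totals (2161890, 2234379 and 2236845 counts), and its highest in the largest library (2875163). The part of the totals in this order was not tested. Dividing by own positions instead gave TUBA1B 55.9% and TUBA1A 39.3%, so the leading alpha isotype depended on that choice, in which the positions matching AC011603.2 were not counted as TUBA1B's own. TUBA4A, outside the 10 genes, would take 20.8% if all alpha genes were summed.

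Of the 6 beta members, TUBB took 32.4% ± 0.899 (SD, n = 8), TUBB4B 26.4% ± 1.81, TUBB6 18.5% ± 1.50, TUBB2A 12.2% ± 1.06, TUBB2B 10.2% ± 0.710 and TUBB3 0.327% ± 0.120. KIF3B knockout replicate 2 had the lowest TUBB4B share, 22.8%, and the highest TUBB2A share, 14.3%, while KIF3B knockout replicate 3 had the highest TUBB4B share, 28.8%. Both extremes of the TUBB4B share were thus replicates of 1 group, with guide 1 for replicate 2 and guide 2 for replicate 3. For TUBB6 the share was 20.2% and 20.4% in the WA09 controls but 17.6% in the KIF3A knockout library, 16.8% and 18.0% in the WTC11 controls and 17.4%, 20.1% and 17.3% in the KIF3B knockout libraries. The count ratio of summed beta to summed alpha members lay between 3.32 and 3.69, and both of these extremes were WTC11 libraries.

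**Figure D4:**
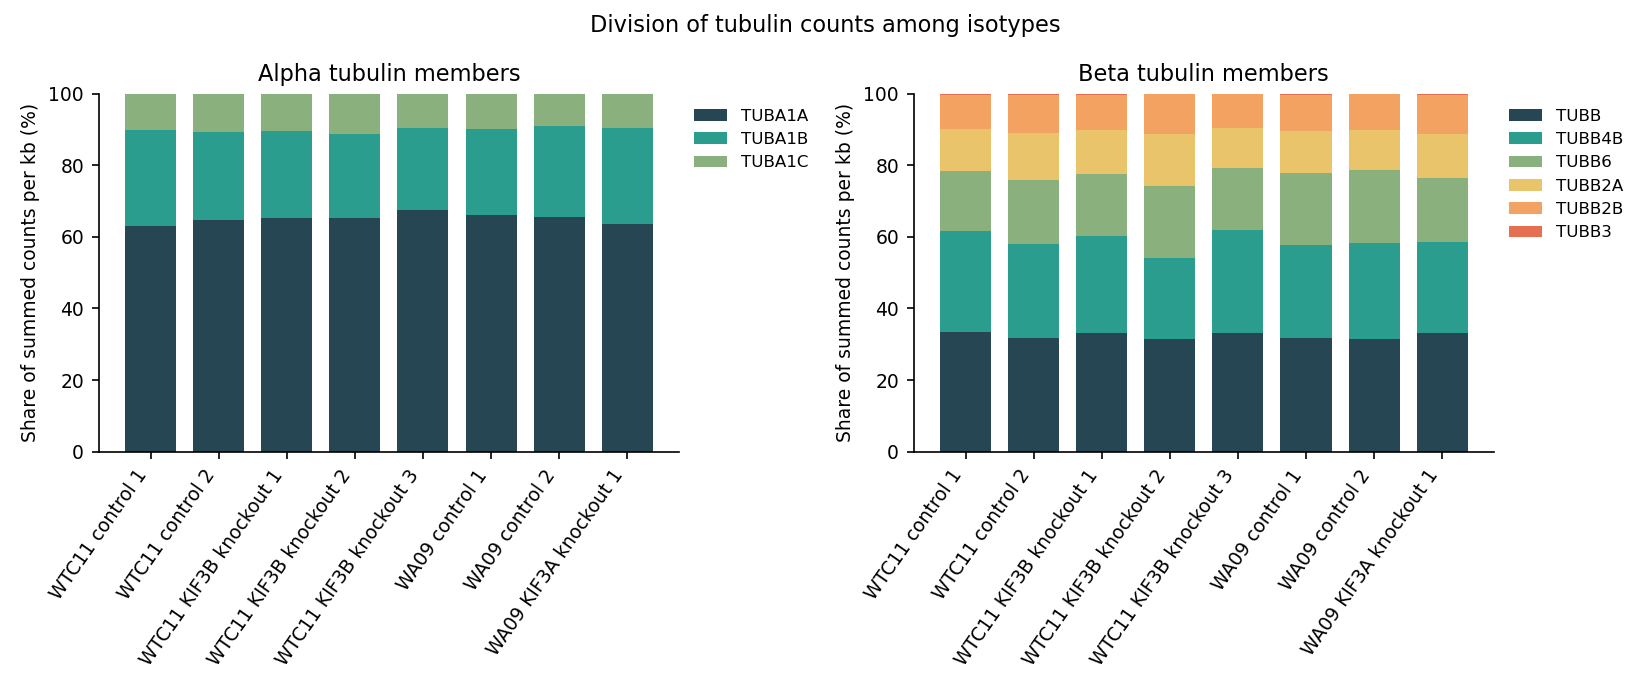
Share of each isotype in the summed counts per kilobase of the 3 alpha (left) and 6 beta (right) members, in percent, 1 bar per library. TUBA1A takes 63.1% to 67.5% of the alpha sum and TUBB 31.3% to 33.5% of the beta sum, and the widest shift among beta genes is that of TUBB4B, between 22.8% and 28.8%, within the KIF3B knockout group.

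Loss of KIF3B was compared with the isogenic WTC11 controls to ask whether tubulin transcripts differ without this motor subunit. No member passed the test (0 of 10, edgeR quasi-likelihood test at a Benjamini-Hochberg adjusted p of 0.05), against 0% of all 14216 genes. At an unadjusted p under 0.05, 0 of 10 members passed, against 16.6% of all genes. DESeq2 and limma voom called 0 members in this and the other 3 comparisons, although DESeq2 called 257 genes here. In CPM all 10 were lower on average in the knockout libraries, with a median log2 fold change of -0.10 against 0.03 over all genes, but with counts not scaled to the library total, an alternative chosen after seeing the data, 8 of 10 were higher and the median was 0.12. Knockout libraries held 1.20 times the counts of the controls, 0.26 on the log2 scale. Unscaled, the median of all genes moved by 0.23 to 0.25, so relative to it the members lay at -0.13, close to -0.12 with scaling. A trend of fold change with transcript length was present too: with it removed the members' median was 0.00 and 5 of 10 were higher, while the median of all genes was -0.05, so relative to it the members lay at 0.06. Leaving out 1 library at a time, their median ran from -0.19 without KIF3B knockout replicate 2 to -0.07 without KIF3B knockout replicate 3, and 3 of 10 were higher without the latter or without WTC11 control replicate 2.

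TUBA1B had 108 ± 7.31 CPM (SD, n = 2) in the WTC11 controls and 89.7 ± 5.05 (n = 3) in the KIF3B knockout libraries, a log2 fold change of -0.27 ± 0.16 SE (edgeR adjusted p = 0.441). Its raw mean count was 237 in controls and 229.7 in knockout libraries. TUBB4B stood at 373 ± 7.65 CPM against 335 ± 14.6, a log2 fold change of -0.15 ± 0.09 SE (edgeR adjusted p = 0.436) that turned to 0.08 without scaling. TUBB stood at 736 ± 24.4 against 682 ± 33.3 CPM, or -0.11 ± 0.08 SE (edgeR adjusted p = 0.535), and 0.11 without scaling. TUBA1A, at 316 ± 3.27 against 297 ± 18.0 CPM, gave -0.09 ± 0.10 SE, and 0.14 without scaling. In 6 members, TUBA1A, TUBA1B, TUBB, TUBB3, TUBB4B and TUBG1, every knockout CPM lay below both controls, as it did in 18% of all genes. By raw counts 0 members had every knockout library below both controls, against 6.49% of all genes, and 2, TUBA1A and TUBA1C, had every one above, against 26.1%.

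No remaining member passed either. TUBB2A and TUBB2B each gave -0.08, with SE 0.18 and 0.17, and both became positive without WTC11 control replicate 2 (0.07 and 0.09) and without KIF3B knockout replicate 3 (0.04 and 0.01). TUBB6 gave -0.03 ± 0.14 SE, TUBG1 -0.09 ± 0.12 SE and TUBA1C -0.11 ± 0.20 SE. TUBB3 had the widest estimate, -0.81 ± 0.77 SE, with a 95% interval from -2.52 to 0.90. For TUBB the 95% interval was -0.29 to 0.07 and for TUBA1A -0.31 to 0.13, so for these 2 genes a log2 difference beyond 0.31 in size lay outside the interval, on the scaled values.

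Loss of KIF3A was compared with the WA09 controls, with 1 knockout library that was assumed to vary like the other groups. None of the 10 members passed, and 0% of all 14216 genes did (edgeR). At an unadjusted p under 0.05, 0 members passed, against 3.71% of all genes. In CPM 9 of 10 were higher, with a median log2 fold change of 0.16 against -0.02 over all genes, whereas without scaling 8 of 10 were lower and the median was -0.05. This library held 0.866 times the mean total of its controls, -0.21 on the log2 scale. Unscaled, the median of all genes moved by -0.21 to -0.23, and relative to it the members lay at 0.18, as they did with scaling. With the length trend removed their median was 0.17 against 0.0049 over all genes. Without WA09 control replicate 2 their scaled median was 0.08. Every one of the 9 lay above both controls in CPM, against 33.8% of all genes, and TUBB6 below both, against 33%. By raw counts 6 members lay below both controls, against 51.6% of all genes.

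TUBA1B had 89.5 ± 0.596 CPM (SD, n = 2) in the WA09 controls and 106 in the KIF3A knockout library, a log2 fold change of 0.25 ± 0.22 SE, or 0.04 without scaling. TUBB had 609 ± 16.1 against 672 CPM, 0.14 ± 0.11 SE, which turned to -0.07 without scaling. TUBG1, at 157 ± 0.0476 against 178 CPM, gave 0.18 ± 0.16 SE, and -0.03 without scaling. TUBB6 was the exception on the scaled values, at 302 ± 4.73 against 276 CPM, with -0.13 ± 0.19 SE, and it was lower without scaling as well, at -0.34. For all 10 members the edgeR adjusted p was 1.

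The difference between both knockout effects, KIF3A minus KIF3B, was tested in the same fit. No member passed and 0% of all 14216 genes did (edgeR), with 0 of 10 members and 9.3% of all genes at an unadjusted p under 0.05. The median over the members was 0.26 against -0.04 over all genes, with 9 of 10 above 0, and -0.18 with 8 of 10 below 0 without scaling, where the median of all genes moved by -0.44. With the length trend removed the members' median was 0.11 against 0.06 over all genes, a gap of 0.04 where the reported values gave 0.30. TUBA1B had the largest estimate among members with a mean of at least 100 counts, 0.52 ± 0.27 SE (edgeR adjusted p = 0.572), with raw counts that differed little in either line. TUBB gave 0.25 ± 0.13 SE (edgeR adjusted p = 0.580).

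**Figure D5:**
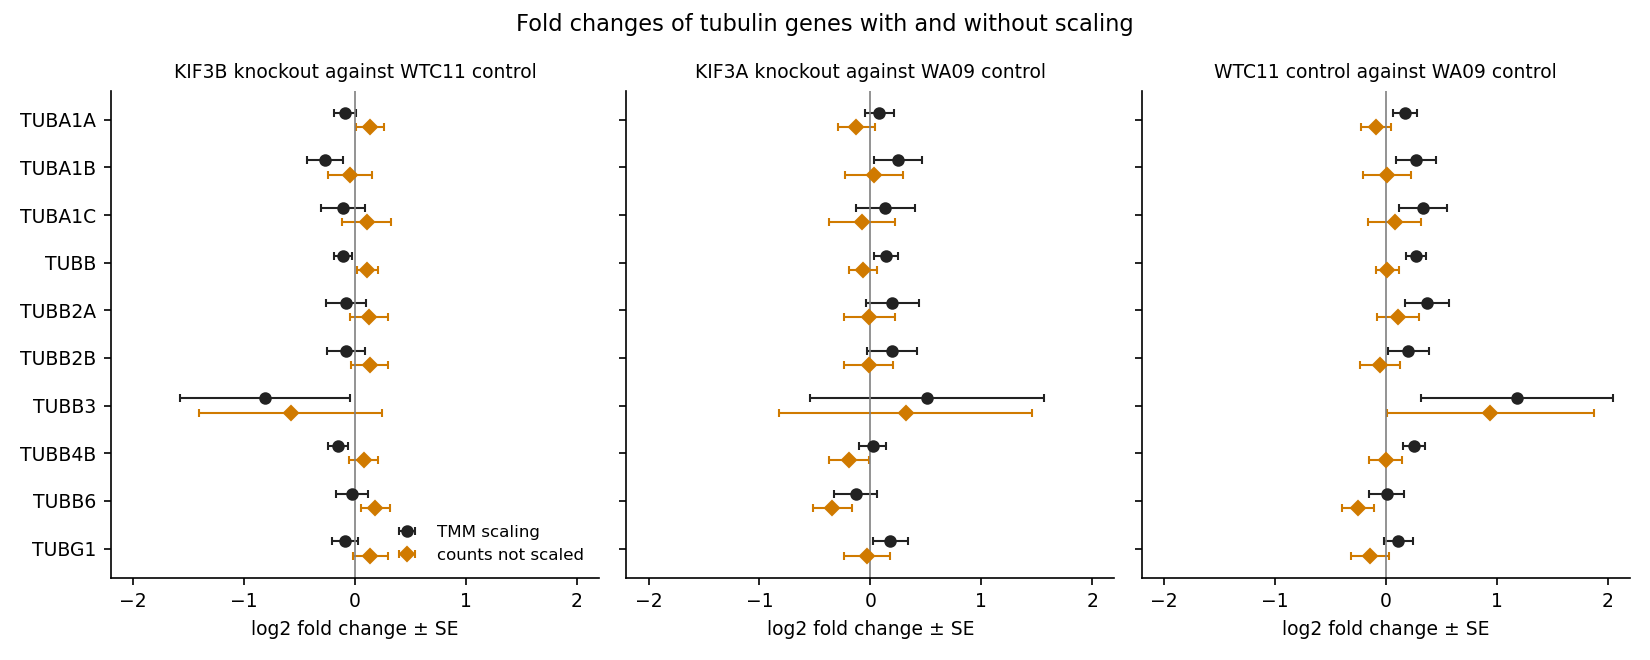
Log2 fold change with its SE for each tubulin gene in the KIF3B, the KIF3A and the line comparison, with TMM scaling (black circles) and from counts not scaled to the library total (orange diamonds), with a grey line at 0. Scaled medians of -0.10, 0.16 and 0.26 become 0.12, -0.05 and 0.0048 without scaling, and TUBB3 has the widest bars.

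Between the control libraries of both lines, the members were set against each other without a knockout. No member passed, and 4 of 14216 genes, 0.0281%, did (edgeR). TUBB and TUBB4B passed an unadjusted p under 0.05, 2 of 10 members against 15% of all genes. In CPM all 10 were higher in WTC11, with a median log2 fold change of 0.26 against -0.01 over all genes, and every WTC11 value exceeded every WA09 value in 8, against 23.6% of all genes. By raw counts TUBB3 alone had both WTC11 values above both WA09 values, against 9.88% of all genes, and TUBA1A, TUBB6 and TUBG1 had both below, against 39.4%. From unscaled counts 5 were higher and 5 lower, with a median of 0.0048, while the median of all genes moved by -0.26, so the members lay 0.27 above it on either scale. With the length trend removed the members' median was 0.38 against 0.09 over all genes, with 10 of 10 higher. WTC11 controls held 0.851 times the total of WA09 controls. TUBB was at 736 ± 24.4 CPM in WTC11 and 609 ± 16.1 in WA09 (SD, n = 2 each), a log2 fold change of 0.27 ± 0.09 SE (edgeR adjusted p = 0.212), and at mean counts of 1615 and 1598. TUBB4B was at 373 ± 7.65 and 312 ± 1.65 CPM, 0.26 ± 0.10 SE (edgeR adjusted p = 0.281), and at mean counts of 818.5 and 820.0. TUBB2A gave 0.37 ± 0.20 SE, and TUBB6, at 304 ± 35.6 and 302 ± 4.73 CPM, 0.01 ± 0.16 SE, whose sign turned with DESeq2 size factors (-0.01) and with unscaled counts (-0.25). All comparisons with WA09 share its 2 control libraries and all with WTC11 share its own, so these values are not independent of each other.

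Of 13 other tubulin genes, 6 passed the filter and 5 had a mean of at least 5 CPM, none of which passed in any comparison (edgeR). TUBA3C, TUBA8 and TUBAL3 were at 0 in all 8 libraries. TUBA4A, an alpha isotype of blood platelets and neurons, had 306 to 373 counts and was more even than TUBG1, with a variance over mean of 1.31. TUBE1, epsilon tubulin, which stabilises the triplet microtubules of centrioles, varied the most, with 166 and 186 counts in the WTC11 controls, 146, 152 and 96 in the KIF3B knockout libraries, 292 and 340 in the WA09 controls and 232 in the KIF3A knockout library. TUBE1 counts in each KIF3B knockout library lay below both controls, as in 6.49% of all genes, and its CPM did too, as in 18%. Its counts in both WTC11 controls lay below both WA09 controls, as in 39.4% of all genes, and its CPM did too, as in 23.6%. Its log2 fold change was -0.63 ± 0.26 SE for KIF3B (edgeR adjusted p = 0.267), -0.23 ± 0.34 SE for KIF3A and -0.58 ± 0.28 SE between the control lines. TUBB4A gave -0.37 ± 0.29 SE and TUBG2 -0.32 ± 0.52 SE for KIF3B. TUBD1 gave -0.03 ± 0.25 SE for KIF3B, and TUBD1 and TUBA4A took the opposite sign (0.20 and 0.08) without scaling.

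Genes that act on tubulin were read from lists, none of whose members passed in the KIF3B comparison (0 called in each list, edgeR, against 0% of all genes). Over all 14216 genes 6851 were lower and 7350 higher, 4469 were lower without scaling, and 16.6% were at an unadjusted p under 0.05, the share against which each list's count is to be read. Among 20 folding chaperones, which fold nascent tubulin and assemble the dimer, 18 were lower, with a median of -0.24 against 0.03 over all genes and 9 at an unadjusted p under 0.05. Of the 20, 11 were lower without scaling and 15 with the length trend removed. PFDN5, a prefoldin subunit that hands nascent chains to the chaperonin, had 206 and 163 CPM in controls and 135, 125 and 115 in knockout libraries, -0.56 ± 0.15 SE (edgeR adjusted p = 0.175). PFDN4, of the same complex, gave -0.64 ± 0.20 SE (edgeR adjusted p = 0.188). In CPM both were lower in each knockout library than in each control, as were 18% of all genes.

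In the list of 12 gamma tubulin complex genes, 8 were lower and 4 higher in KIF3B knockout libraries, with a median of -0.27. Of the 12, 5 were at an unadjusted p under 0.05. Without scaling 6 were lower and 6 higher, with a median of -0.04 against 0.25 over all genes. With the length trend removed 8 were lower and 4 higher, with a median of -0.43 against -0.05 over all genes. TUBGCP2 and TUBGCP3, the core subunits that hold gamma tubulin, were among the 4 higher ones in the reported fit, at 0.96 ± 0.28 SE and 0.82 ± 0.25 SE (edgeR adjusted p = 0.179 and 0.181). Of 21 tested tubulin modifying enzymes, 15 were higher, with a median of 0.23 and 4 at an unadjusted p under 0.05, and 11 were higher with the length trend removed. VASH2, which removes the terminal tyrosine of alpha tubulin, gave 0.63 ± 0.18 SE, and TTL, the ligase that restores it, 0.68 ± 0.21 SE (edgeR adjusted p = 0.180 and 0.190). TTL had 146 and 186 counts in the WTC11 controls, 284, 344 and 292 in the KIF3B knockout libraries, 243 and 250 in the WA09 controls and 119 in the KIF3A knockout library. For KIF3A it gave -0.84 ± 0.30 SE, and the difference between both effects was -1.51 ± 0.37 SE (edgeR adjusted p = 0.515). With the length trend removed TTL gave 0.27 for KIF3B.

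Of 30 tested microtubule associated proteins, 22 were higher in KIF3B knockout libraries and 8 were at an unadjusted p under 0.05. Their median of 0.16 became 0.02, with 17 higher, once the length trend was removed. CAMSAP1, which caps microtubule minus ends, had 26 and 56 counts in controls and 152, 165 and 170 in knockout libraries, 1.77 ± 0.37 SE (edgeR adjusted p = 0.172). STMN1, which sequesters tubulin dimers, gave -0.30 ± 0.08 SE (edgeR adjusted p = 0.175). Among 12 genes of tubulin mRNA autoregulation, 5 were higher and 7 lower, with a median of -0.09 and 1 at an unadjusted p under 0.05. Without scaling 9 were higher and 3 lower, with a median of 0.14 against 0.25 over all genes. With the length trend removed 4 were higher and 8 lower, with a median of -0.20 against -0.05 over all genes. CNOT1, the scaffold of the CCR4-NOT complex, had 321 and 386 counts in controls and 642, 668 and 1260 in knockout libraries, 1.03 ± 0.31 SE (edgeR adjusted p = 0.180), and 0.68 with the length trend removed. CAMSAP1 and CNOT1 passed with DESeq2 and in edgeR without the filter on low counts. CNOT8, a deadenylase of the same complex, gave -0.21 ± 0.12 SE, and 0.01 without scaling. The median over 20 genes of G2 and mitosis, when tubulin demand is high, was -0.06, and over 14 actin and intermediate filament genes -0.04. Without scaling these became 0.17 and 0.16, against 0.25 over all genes.

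In the KIF3A comparison 0 genes of these lists passed (edgeR, against 0% of all genes). The median was 0.08 over the folding chaperones, 0.10 over the gamma tubulin complex, -0.16 over the modifying enzymes, -0.06 over the microtubule associated proteins, -0.06 over the autoregulation genes and -0.02 over the genes of G2 and mitosis, against -0.02 over all genes. Without scaling, 16 of 20 chaperones, 8 of 12 complex genes, 16 of 21 enzymes and 23 of 30 associated proteins were lower, as were 10237 of 14216 genes.

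The genes whose log2 CPM most resembled those of the tubulins over the 8 libraries, among genes with a mean of at least 50 CPM, were listed by Pearson's r as a description. For summed alpha members they were RBM42 (0.95), NAA10 (0.94) and SNRPN (0.94). For summed beta members the 2 reported here were YBX3 (0.97) and CCT7 (0.96), and for TUBB2B they were FTH1 (0.95), AC064802.1 (0.95) and PSAT1 (0.94). TUBB2A itself reached 0.93 with TUBB2B, while TUBB4B and TUBB6 had an r of -0.10 with each other. All these points share library totals and their scaling.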

How the data were processed

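The authors deposited raw read counts per gene for 8 libraries. Reads were aligned to hg38 with STAR, per the submitters' processing notes, which give no version. Per the labels' protocols, 100 to 1000 cells were lysed directly and libraries were made with SMARTseq chemistry and Nextera XT. For the counter, strand setting and handling of duplicate or multiply mapping reads, these sources say nothing. Groups came from the labels. Of 58302 entries, 58039 matched GENCODE release 29 by identifier, the source of positions and transcripts. The 20993 entries without a name held 0.446% to 0.673% of counts.

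Counts were fitted with edgeR 4.0.16 in R 4.3.3 (quasi-likelihood F test, robust, TMM, filterByExpr, 1 mean per group over all 8 libraries), with Benjamini-Hochberg adjustment over 14216 genes and a threshold of 0.05, after a test on simulated data. Alternatives used DESeq2 1.42.0, limma 3.58.1 voom, DESeq2 size factors, no filter, only the compared groups, a guide block, a length correction and each library left out. Named genes were the 10 members, KIF3A, KIF3B, other tubulins from 5 CPM, and up to 2 of each list by smallest p in the KIF3B comparison for the lists of tubulin folding, nucleation, modification, binding and autoregulation. For the other lists and comparisons only counts and medians are given, except TTL, which was followed into the other comparisons after its values were seen. ACTB and GAPDH were added for the spread of counts. The members and lists were chosen with earlier results of these data known. Limits on a count of 0 cover counting error only. RefSeq promoter and miRNA sequences were not used here. Some sequences and 1 gene of a ranked list are not reported here.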

Additional observations from a re-analysis of the deposited data

How the results depend on the processing

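No member passed the threshold under any alternative run in any comparison. Over the alternatives, without the reported fit, this was 0 of 150 values for KIF3B, 0 of 150 for KIF3A, 0 of 140 for their difference and 0 of 150 between lines. Directions depended on scaling. Counts not scaled to the library total were an alternative chosen after seeing the data. They gave log2 fold changes for KIF3B of 0.14 for TUBA1A, 0.11 for TUBA1C, 0.11 for TUBB, 0.13 for TUBB2A, 0.13 for TUBB2B, 0.077 for TUBB4B, 0.18 for TUBB6, 0.14 for TUBG1, 0.076 for TUBA4A, 0.20 for TUBD1 and 0.011 for CNOT8. For KIF3A they gave -0.13 for TUBA1A, -0.076 for TUBA1C, -0.069 for TUBB, -0.011 for TUBB2A, -0.015 for TUBB2B, -0.19 for TUBB4B, -0.032 for TUBG1, -0.069 for TUBA4A, -0.15 for TUBB4A and -0.058 for TUBD1. For the difference of both effects they gave -0.27 for TUBA1A, -0.18 for TUBA1C, -0.18 for TUBB, -0.14 for TUBB2A, -0.15 for TUBB2B, -0.27 for TUBB4B and -0.17 for TUBG1. Between lines they gave -0.085 for TUBA1A, -0.053 for TUBB2B, -0.0026 for TUBB4B, -0.25 for TUBB6, -0.15 for TUBG1, -0.17 for TUBA4A and -0.18 for TUBD1. These turns follow from the construction, since the scaling factors were left out.

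With the length trend removed, the KIF3B value was 0.060 for TUBA1A, 0.14 for TUBB2A, 0.043 for TUBB2B, 0.061 for TUBB6 and 0.13 for TUBG1, and TUBB4A gave 0.067 between lines. TUBB6 between lines gave -0.012 with DESeq2, -0.011 with DESeq2 size factors in edgeR and -0.0035 from only the groups compared. Leaving out 1 library at a time, the KIF3B value ran from -0.25 to 0.070 for TUBB2A, -0.23 to 0.092 for TUBB2B, -0.18 to 0.10 for TUBB6 and -0.24 to 0.24 for TUBD1. The KIF3A value ran from -0.13 to 0.28 for TUBB4A and -0.031 to 0.35 for TUBD1, and the difference of both effects from -0.23 to 0.043 for TUBB6. Between lines the range was -0.12 to 0.12 for TUBB6, -0.26 to 0.16 for TUBB4A, -0.19 to 0.29 for TUBD1 and -0.36 to 1.49 for TUBG2. The cause of these turns was not tested.

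The count of genes called moved far more than the members did. For KIF3B it was 0 as reported, 676 without the filter, 257 with DESeq2, 70 unscaled and 0 to 5 without 1 library. For KIF3A it was 0 as reported, 2 without the filter and 0 to 1 without 1 library, and for the difference of effects 0, 160 without the filter, 20 with DESeq2 and 0 to 1 without 1 library. Between lines it was 4 as reported, 525 without the filter, 234 with DESeq2, 12 with the length trend removed, 0 to 1 without 1 library and 0 with DESeq2 size factors, limma voom, only the groups compared and unscaled counts. Outside the members, CAMSAP1 and CNOT1 passed for KIF3B without the filter and with DESeq2. PFDN5, TUBGCP2, VASH2 and, for the difference of effects, TTL passed without the filter. The cause was not tested.

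The guide number as replicate block gave 1 gene called for KIF3B and 0 between lines, changed no member's call and turned TUBD1 for KIF3B to 0.0032. Control and knockout libraries of the same guide number correlated at 0.104, -0.108 and -0.0168 in their deviations from the group mean. The deviations of the WTC11 controls mirror each other by construction. Pairs of different guide number therefore gave the same values with the opposite sign, -0.104, 0.108 and 0.0168. These correlations cannot show whether libraries of the same guide number form pairs. The reported fit did not treat the numbers as pairs.

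Isotype shares moved with the length used. Undivided counts gave TUBA1B 20.6%, TUBA1C 15.5%, TUBB 41.5%, TUBB2A 9.32% and TUBB4B 20.7%. Summing all alpha genes gave TUBA1A 51.4%, TUBA1B 19.5% and TUBA1C 7.98%. Counts per own position, chosen after seeing the data, gave TUBA1A 39.3%, TUBA1B 55.9%, TUBA1C 4.86%, TUBB 29.8%, TUBB2A 22.7%, TUBB2B 13.7%, TUBB3 1.97%, TUBB4B 19.9% and TUBB6 11.9%. Depth limits TUBB3, at 5 to 18 counts, and 1537 of its 1720 positions also stood in AC092143.1. The part of this overlap in its counts was not tested.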
